A study of Mus musculus with 9 samples.

Results

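The signal of accessible chromatin was compared between day 6 cells with and without knockdown of histone H3.3, at the regions that both ATAC-Seq libraries called. In ATAC-Seq, a transposase inserts sequencing adaptors wherever DNA is not wrapped tightly, so that tags pile up over promoters, enhancers and other accessible sites. A region was a member where merged peaks of D6 siH3.3 and D6 siNT shared at least 1 bp on chromosomes 1 to 19. The 33667 members held 34725 of the 46211 siH3.3 regions and 34509 of the 45312 siNT regions on these chromosomes, and all 9 libraries of the series together had 622836 regions. The measure was the highest pileup of a region, which is the number of extended tags over its strongest summit, scaled to the total tags of the library (CPM). It was expressed as the log2 ratio of siH3.3 over siNT and centred on the median of the members, so that 0 is the typical region.

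Both libraries came from mouse embryonic fibroblasts (MEFs) with a GFP reporter at Oct4. All cells were infected with pMXs retroviruses carrying Sox2, Klf4, Oct4 and c-Myc and grown in feeder-free medium until day 6. The siH3.3 cells had been transfected before the infection with siRNAs against H3f3a and H3f3b, and the siNT cells with a non-targeting siRNA. The knockdown was transient. The labels give both libraries as Thy-1-, the sorted fraction that had lost this fibroblast surface protein, whereas the study's list of libraries gives no sorting for them. The day 6 Thy-1- library of infected cells without siRNA (D6T-), the MEFs (D0) and the iPSCs are used below only to sort or set beside the members. The same holds for the other libraries of this infected time course. D3 is day 3, D9T- the Thy-1- cells of day 9, and D12S+ and D16S+ the cells of days 12 and 16 sorted for the pluripotency marker SSEA-1. Each condition had 1 library, so that no difference could be tested against the spread between replicates, and a difference between conditions cannot be told apart from a difference between libraries. No value below is a p-value. An interval of a single region is the exact (Clopper-Pearson) 95% interval for the ratio of its 2 tag counts, and an interval of a class is the 95% order-statistic interval of its median over regions. The first covers counting error only and the second the sampling of regions only. The first, and the counting SD below, treat the 2 highest pileups as Poisson counts at 1 site. Each pileup is a maximum found separately in its library, so that both measures are approximate. The 2 summits of a member lay a median of 44 bp apart, and 55.2% lay within 50 bp.

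H3.3 is the replacement variant of histone H3. Unlike canonical H3, which is made in S phase, it is made and placed throughout the cell cycle. The Hira complex places it at promoters, enhancers and transcribed genebodies, and Daxx with Atrx at heterochromatin and telomeres. It is encoded by H3f3a and H3f3b. The siRNAs act on the mRNA, so that the peaks at these genes do not measure the knockdown.

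At the shared regions with more than 50 tags in sum, the libraries differed by about as much as or slightly more than counting of tags gives, and at weaker regions by less. The median highest pileup was 17 tags in siH3.3 (quartiles 13 and 25) and 19 tags in siNT (quartiles 14 and 27). Scaled to the total tags (18669683 and 21784047) the medians were 0.911 and 0.872 CPM. Before centring, the typical region was 1.06-fold higher in siH3.3 (median log2 ratio 0.078). After centring, the ratios had quartiles of -0.27 and 0.25 and an SD of 0.40, and 28807 regions (85.6%) lay within 1.5-fold. The largest differences were 3.19-fold higher and 3.08-fold lower in siH3.3. Of the members, 236 (0.701%) were at least 2-fold higher in siH3.3 and 270 (0.802%) at least 2-fold lower. Of these, 231 and 258 had fewer than 60 tags in the sum of both libraries. The counting interval lay above 0 at 300 regions (0.891%) and below 0 at 357 regions (1.06%). A typical interval reached from 1.05 below to 1.04 above the measured log2 ratio, so that a 2-fold difference at a typical single region was not detectable at this depth.

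The spread followed the tag count. The members with 51 to 75 tags in the sum of both libraries (n = 5178) had an SD of 0.373, and counting alone gives 0.377. With over 100 and up to 150 tags (n = 1140) the SD was 0.275 against 0.268 from counting. With over 150 and up to 250 tags (n = 334) it was 0.235 against 0.218. With over 250 and up to 1000 tags (n = 56) it was 0.176 against 0.152. At lower counts, which most members had, the SD lay below the counting value. It was 0.346 against 0.608 at 25 tags or fewer (n = 5394), 0.441 against 0.535 at 26 to 35 tags (n = 11361) and 0.436 against 0.454 at 36 to 50 tags (n = 8174). A region must pass the peak caller in both libraries (lowest pileup called 8 tags in siH3.3 and 9 tags in siNT), which bounds the ratio at low counts. Among all 36 pairs of the 9 libraries, siH3.3 and siNT had the lowest ratio of measured to counting SD at regions of over 100 and up to 250 tags, 1.04. The pair of D9T- and siNT followed with 1.26. D6T- against siNT gave 1.54, and D12S+ against D16S+ gave 1.46. These pairs share libraries and are set side by side without a test.

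**Figure D1:**
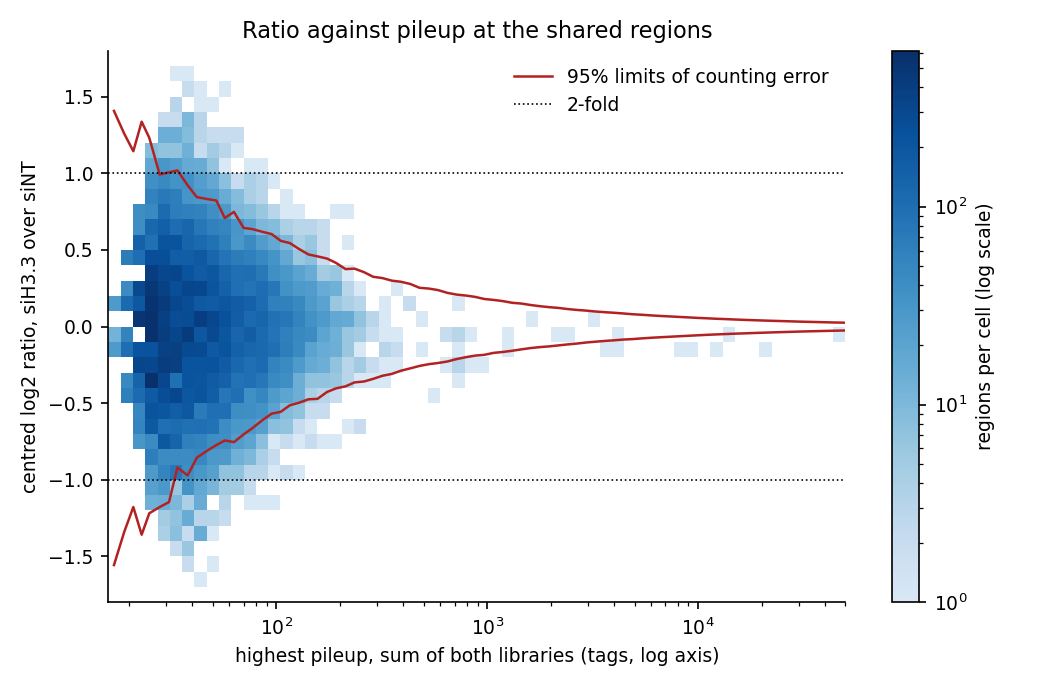
Centred log2 ratio of siH3.3 over siNT (vertical axis) against the summed highest pileup of both libraries (tags, log axis) for the 33667 shared regions, with the number of regions per cell as shade. Red lines are the 95% limits of counting error around the median ratio, and dotted lines mark 2-fold. Nearly all regions past 2-fold have fewer than 60 tags in sum, and the cloud narrows with the counting limits.

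**Figure D2:**
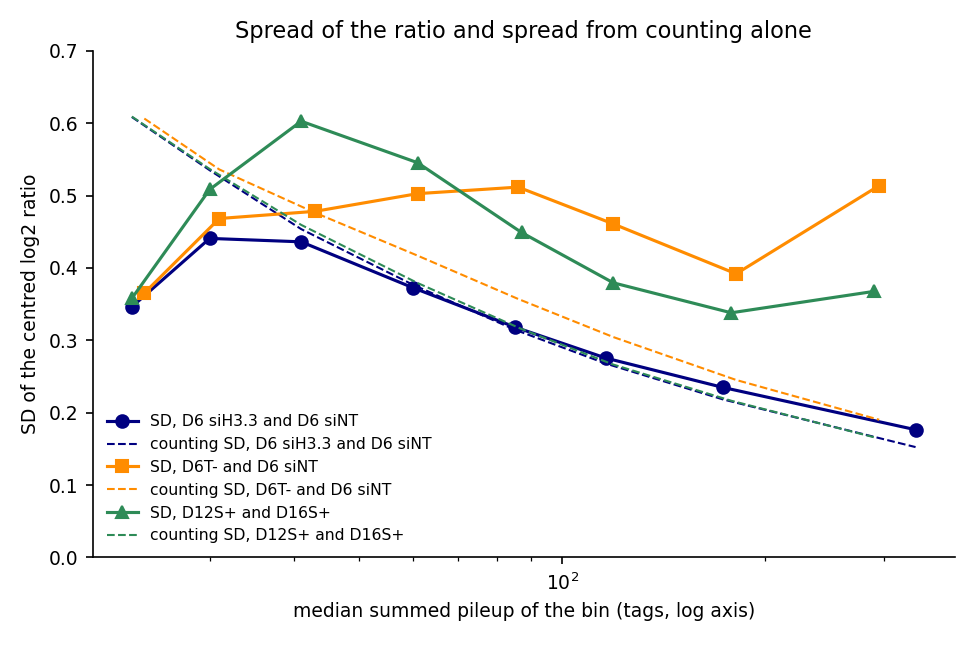
SD of the centred log2 ratio over regions (symbols, solid lines) and the SD that counting of tags alone gives (dashed lines), against the median summed pileup of each bin of regions (tags, log axis), for 3 pairs of libraries. The SD of siH3.3 and siNT runs along its counting line from 51 tags upward (0.373 against 0.377 at 51 to 75 tags), while the other pairs lie above theirs.

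The regions with the largest differences show what single sites looked like. The rule took the 8 largest differences in each direction among regions with at least 30 tags in 1 library and a counting interval that left out 0. A region that reached 30 tags only in its higher library had to differ, so that these are examples and their number is not a result. Of these, 5 outside exons are printed here, to show what the sites hold, as 201 bases of mm9 (plus strand, 5′ to 3′) around the siNT summit. Capitals mark the AP-1 motif TGACTCA, the CCAAT box CCAAT and the GC box GGGCGGG of Sp and Klf factors, searched on both strands. Of all 33667 shared regions, 8478, 8754 and 5941 held these motifs in such a window. Their presence is a description of the letters.
chr13:6623446-6623646, higher in siH3.3, upstream of Pfkp: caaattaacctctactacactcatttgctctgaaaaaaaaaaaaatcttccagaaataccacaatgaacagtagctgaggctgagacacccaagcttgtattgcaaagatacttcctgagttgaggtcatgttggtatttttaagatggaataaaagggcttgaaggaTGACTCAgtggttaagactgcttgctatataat
chr16:48646356-48646556, higher in siH3.3, intergenic: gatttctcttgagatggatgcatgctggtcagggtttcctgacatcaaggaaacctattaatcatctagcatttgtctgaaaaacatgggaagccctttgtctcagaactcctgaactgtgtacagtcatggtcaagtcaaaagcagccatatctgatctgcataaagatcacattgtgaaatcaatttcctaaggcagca
chr11:121513357-121513557, lower in siH3.3, in B3gntl1: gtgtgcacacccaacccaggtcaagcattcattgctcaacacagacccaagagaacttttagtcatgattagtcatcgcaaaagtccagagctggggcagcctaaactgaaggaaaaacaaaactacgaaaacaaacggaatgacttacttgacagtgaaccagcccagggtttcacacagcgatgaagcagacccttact
chr10:98710386-98710586, lower in siH3.3, upstream of Dusp6: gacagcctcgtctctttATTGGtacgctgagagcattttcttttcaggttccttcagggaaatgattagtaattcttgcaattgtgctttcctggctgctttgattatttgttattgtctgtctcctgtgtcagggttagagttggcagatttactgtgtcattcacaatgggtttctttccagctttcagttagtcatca
chr5:91305126-91305326, lower in siH3.3, upstream of Cxcl1: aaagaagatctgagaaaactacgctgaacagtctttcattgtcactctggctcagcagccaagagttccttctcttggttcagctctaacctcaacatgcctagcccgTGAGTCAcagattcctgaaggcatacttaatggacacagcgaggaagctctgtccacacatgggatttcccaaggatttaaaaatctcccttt

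The Pfkp region (chr13:6623367-6624006) lay 2.39 kb upstream of a TSS of Pfkp, which encodes the platelet type of the glycolytic enzyme phosphofructokinase. It had 30 tags in siH3.3 and 11 in siNT, a log2 ratio of 1.59 (interval 0.55 to 2.74). Its window has an AP-1 motif, and it was called with 38 tags in D0 and 63 in D6T- but not in iPSCs. The intergenic region at chr16:48646196-48646690 had 30 tags in siH3.3 and 12 in siNT (1.47, interval 0.46 to 2.57), and 68 in D6T-. The intronic region at chr6:131327399-131327764 had 42 tags against 16 (1.54, interval 0.68 to 2.47). It stood apart in the time course, with 215 tags in D3, 8 in D6T- and no peak in D0 or iPSCs. The other higher regions lay 0.111 kb upstream of the transcript Gm3513 (31 tags against 13), 1.70 kb upstream of 4930440I19Rik (31 against 13), 29.5 kb from a TSS of Sprr2a3, a cornified envelope gene (37 against 17) and at a pair of intergenic sites on chromosomes 5 and 11.

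The largest difference in the other direction lay in an intron of B3gntl1, a glycosyltransferase gene, at chr11:121513260-121513689. It had 10 tags in siH3.3 and 34 in siNT, a log2 ratio of -1.62 (interval -2.80 to -0.57), and 59 tags in D6T-. The region 15.4 kb upstream of Dusp6 (chr10:98710152-98710745), whose product is a phosphatase of Map kinases, had 11 tags against 36 (-1.57, interval -2.69 to -0.56). The promoter region of Dusp6 itself had 48 tags against 61 (-0.20, interval -0.78 to 0.37). The region 15.0 kb upstream of Cxcl1, a chemokine gene, had 11 tags against 32 (-1.40, interval -2.53 to -0.37) and has an AP-1 motif. The promoter region of Aim1l (chr4:133637688-133638390) had 10 tags against 30 (-1.44, interval -2.64 to -0.37). It was the only one of the 8 with iPSC signal, at 69 tags, and it had no peak in D0. The remaining lower regions, on chromosomes 1, 2, 12 and 18, had 11 or 12 tags in siH3.3 and 32 or 34 in siNT.

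Over all members, with no minimum of tags, the 300 regions (0.891%) with an interval above 0 and the 357 (1.06%) with one below 0 fell as follows. Promoters held 83 and 131, genebodies 114 and 125, and intergenic regions the rest. Regions called in D0 but not in iPSCs (n = 8700) held 103 above and 64 below. Regions called in iPSCs but not in D0 (n = 2945) held 10 above and 24 below, and those called in both (n = 14298) 136 above and 205 below. The deeper siNT library and the size and level of a class bear on how many intervals can leave out 0. Their part in these counts was not tested.

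By position the classes were nearly level. Promoter regions (midpoint within 3 kb upstream of a TSS, n = 10046) had a median log2 ratio of -0.026 (interval -0.036 to -0.013). Genebody regions (n = 13003) had 0.0069 (-0.0076 to 0.013) and intergenic regions (n = 10618) 0.0069 (0.00 to 0.019). Since pileups are small whole numbers, their ratios take few values, and neighbouring medians often coincide. The promoter median was 0.032 below the intergenic one (interval of the difference -0.048 to -0.018), far below the spread of single regions (SD 0.382 within promoters). The genebody and intergenic medians were equal (interval of the difference -0.019 to 0.0093). At least 2-fold higher were 45 promoter (0.448%), 98 genebody (0.754%) and 93 intergenic regions (0.876%), against 0.701% of all members. At least 2-fold lower were 64 (0.637%), 109 (0.838%) and 97 (0.914%), against 0.802%. Distance from the nearest TSS gave the same order. Regions within 500 bp of a TSS had a median of -0.026, and those over 100 kb away 0.029.

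GC content moved with position. The quintile of members with the highest GC (64.7% to 87.6% in the 201 bases at the siNT summit) had a median of -0.032 (interval -0.045 to -0.019), while the 3 quintiles of lowest GC lay between 0.0069 and 0.013. In this quintile, promoter, genebody and intergenic regions had medians of -0.037, -0.016 and -0.026. With the ratio centred on a running median over GC, the promoter minus intergenic difference was -0.0080 (interval -0.023 to 0.0022), and among regions with at least 60 tags in sum it was 0.011 (-0.015 to 0.034). Both intervals held 0, and both settings were chosen after the data had been seen. Planned settings with an interval that left out 0 were at least 15 tags in both libraries (-0.052, interval -0.064 to -0.041), only the peaks above their library's median q-value significance (-0.026, -0.050 to -0.0082) and 5 tags added (-0.038, -0.048 to -0.021). With a running median over pileup level, also planned, the difference was 0 (-0.011 to 0).

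By pileup level the medians did not follow one direction, and the difference between the ends depended on the setting. From the lowest to the highest quintile of mean pileup, the medians were 0.0069, -0.048, -0.016, 0.013 and -0.0041, and the means ran from -0.020 to -0.0076. The highest quintile lay 0.011 below the lowest (difference -0.011, interval -0.027 to -0.0045). The difference was -0.14 (interval -0.15 to -0.066) among regions with at least 15 tags in both libraries and 0.057 (0.035 to 0.089) among those with at least 60 tags in sum. A floor of 15 tags is a higher CPM in siH3.3, the library with fewer tags. It bounds the ratios of the lowest quintile unevenly, so that the -0.14 cannot be read as an effect of level. The quintiles by D6T- pileup, which is measured in another library, had medians from -0.013 to 0.0069. A D6T- peak overlapped 33436 of the members (99.3%). The few regions with over 250 tags in sum lay lower. Of these, the 56 with up to 1000 tags had a median of -0.092 (interval -0.15 to -0.026), with 10 counting intervals below 0 and 0 above, and the 15 with over 1000 tags had a median of -0.093, with 9 below and 0 above. The highest of all, at chr1:24618219-24623182, had 20524 tags in siH3.3 and 24198 in siNT (-0.093, interval -0.12 to -0.066). The next, at chr2:98506230-98507618, had 10229 and 12128 tags (-0.10), and the other 3 of the top 5 lay between -0.15 and -0.093. Before centring these regions were therefore nearly equal in CPM, while the typical region was 1.06-fold higher in siH3.3. Such pileups in all 9 libraries (14589 tags in D0 and 21226 in iPSCs at the first) stand far above the medians of 17 tags in siH3.3 and 19 in siNT. At the first, they lay near the highest mitochondrial pileup of the same library. That was 13802 tags in D0, 20771 in iPSCs, 19524 in siH3.3 and 22681 in siNT. The cause was not tested.

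**Figure D3:**
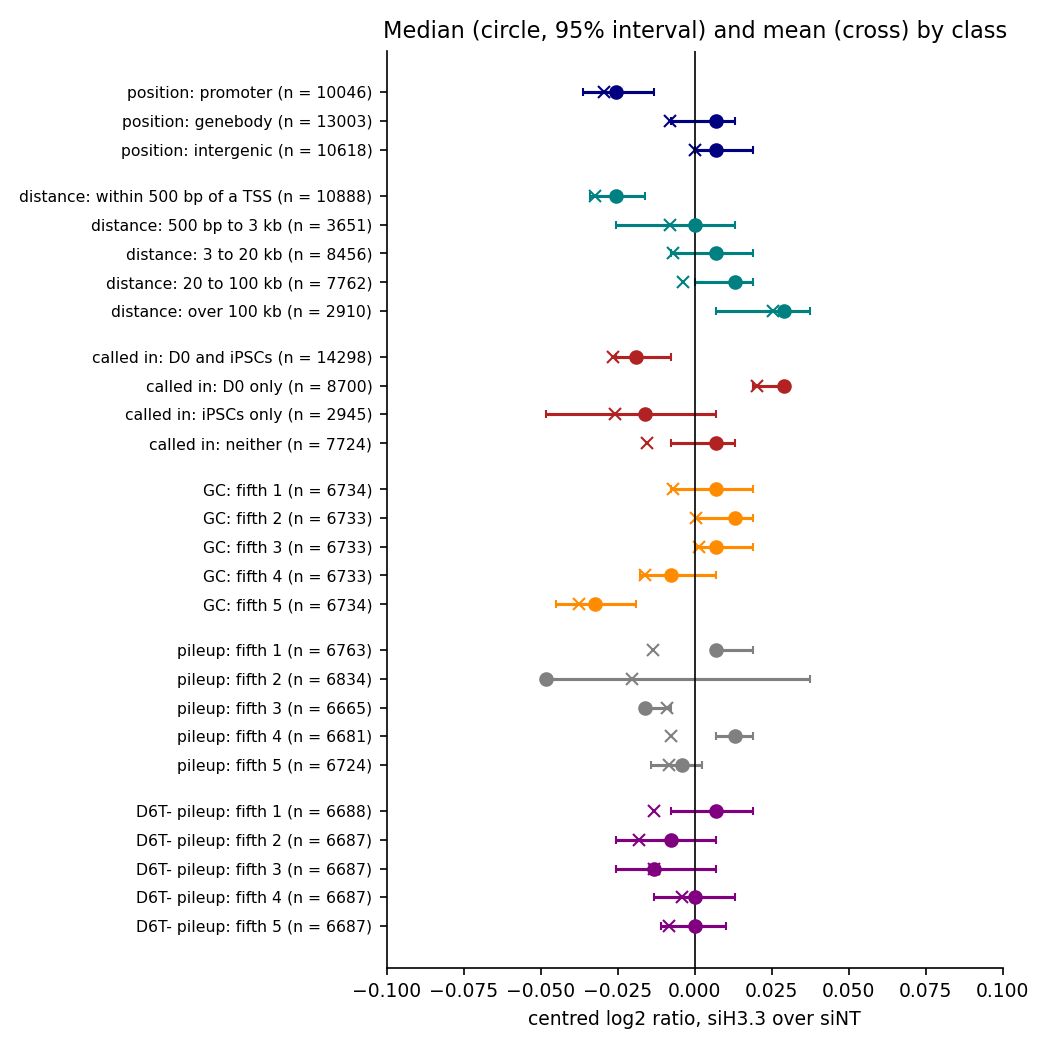
Median (circles, with 95% order-statistic intervals) and mean (crosses) of the centred log2 ratio of siH3.3 over siNT for classes of the shared regions, with the number of regions in brackets. Every class lies within 0.05 of 0, with promoters at -0.026 and the highest GC quintile at -0.032. The regions called in D0 but not in iPSCs (D0 only) lie at 0.029.

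The members were then sorted by the MEF and iPSC libraries, which neither siRNA library contributed to. Regions called in D0 but not in iPSCs (n = 8700) had a median of 0.029 (interval 0.019 to 0.029). Regions called in iPSCs but not in D0 (n = 2945) had -0.016 (-0.048 to 0.0069), those called in both (n = 14298) -0.019, and those called in neither (n = 7724) 0.0069. The regions called in D0 but not in iPSCs were thus slightly higher in siH3.3 than those called in iPSCs but not in D0, by 0.045 (interval 0.020 to 0.077). All members were by rule called at day 6, so that neither class is specific to MEFs or iPSCs. Among regions with at least 60 tags in sum the difference was 0.075, from 922 and 170 regions, and after centring on GC it was 0.034. At intergenic regions alone the medians were 0.037 (n = 3877) and -0.045 (n = 944), and at promoters -0.016 and 0.00 (n = 814 each). After subtraction of a running median over pileup level, the difference was 0.00078. With 1 library per condition this difference had no replicate and no test.

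AP-1 sites, bound by Fos and Jun factors, mark many fibroblast enhancers. Outside promoters, the 7576 members with TGACTCA within 100 bp of the siNT summit had a median of 0.013 and the 16045 without it 0.0069, a difference of 0.0063 (interval -0.0076 to 0.019). The means differed by 0.013 (interval 0.0021 to 0.025), which leaves out 0. A further 9 short motifs were searched after the data had been seen, for Oct, Sox, Klf4, Sp and Klf, Runx, Tead, CCAAT, E-box and CTCF factors. The medians with these motifs outside promoters lay between -0.026 and 0.037, with the highest for the Tead motif ACATTCC (n = 1140) and the lowest for the GC box and the Klf4 motif GGGTGTGG.

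The gene lists covered 153 distinct promoter regions, taken as the strongest shared region that overlapped the 3 kb upstream of a TSS of each gene. Their median was -0.032, and 52.9% were below 0, against 51.9% of all promoter regions. At least 2-fold higher was 1 region (0.654%, against 0.701% of all members) and at least 2-fold lower were 2 (1.31%, against 0.802%). The counting interval lay above 0 at 3 (among them Asf1b and Pax6) and below 0 at 3 (Serpinh1, Col4a1 and Fosl2), where 0.891% and 1.06% of all members lay so. With so few regions these counts are not a result about the listed genes.

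All 14 genes for H3.3 and its deposition had a shared promoter region, 6 above and 8 below 0. Their median was -0.095 (interval -0.41 to 0.12). H3f3a had 29 tags in siH3.3 and 31 in siNT (0.048, interval -0.73 to 0.83). H3f3b had 28 and 41 tags (-0.41, interval -1.15 to 0.32). Hira, the chaperone of active chromatin, had 35 and 45 tags (-0.22), and its partners Ubn1 (36 and 53, -0.41) and Cabin1 (27 and 46, -0.62, interval -1.37 to 0.092) were on the same side. Daxx, the heterochromatin chaperone, had 35 and 51 tags (-0.40). Asf1b, an H3-H4 chaperone of dividing cells, was the only member whose interval left out 0, with 72 tags against 55 (0.53, interval 0.0065 to 1.07). No gene of this list was past 2-fold.

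Of 24 fibroblast and mesenchymal genes, 17 had a shared promoter region, and none had an interval that left out 0 (median 0.057). Twist1, a mesenchymal transcription factor, had 15 tags in siH3.3 and 20 in siNT (-0.27), Snai1 30 and 32 (0.051), and Vim, encoding vimentin, 41 and 36 (0.33). Acta2, encoding smooth muscle actin, had 21 and 15 (0.63, interval -0.40 to 1.69), and Cdh2, encoding N-cadherin, 18 and 31 (-0.64, interval -1.56 to 0.24). Thy1 had no shared region.

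Of 21 collagen synthesis genes, 16 had a shared promoter region, 8 above and 8 below 0, with a median of -0.0017 (interval -0.69 to 0.30). Serpinh1, the collagen chaperone Hsp47, had 8 tags in siH3.3, the lowest pileup called there, and 22 in siNT (-1.32, interval -2.69 to -0.093). Col4a1, a basement membrane collagen, had 11 and 28 tags (-1.20, interval -2.36 to -0.15). Its region lay in a neighbouring genebody, and the strongest shared region within Col4a1 had 24 and 30 tags (-0.18, interval -1.02 to 0.65). Both of these promoter regions were past 2-fold, and both had fewer than 15 tags in siH3.3. With the strongest shared region of each gene in their place, 1 collagen gene was at least 2-fold lower. Col5a2 (16 and 31 tags, -0.81) and Col1a1 (9 and 16, -0.69) were below 0 and the cross-linking enzyme Lox (20 and 14, 0.66) above, each with an interval that held 0. Col6a1 had no shared region.

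Of 12 AP-1 genes, 10 had a shared promoter region, 4 above and 6 below 0, with a median of -0.21 (interval -0.46 to 0.24). Fosl2 had 26 tags against 50 (-0.80, interval -1.54 to -0.088). Jun, with the highest pileup of the list, had 66 and 93 tags (-0.35, interval -0.83 to 0.12), Fos 23 and 35 (-0.46), Junb 18 and 25 (-0.33) and Fosb 25 and 20 (0.47). Of 25 Mapk cascade genes, 23 had a shared promoter region, of which 18 were below 0 and 5 above, with a median of -0.15 (interval -0.34 to -0.031). Among all promoter regions 51.9% were below 0. Without centring, the Mapk median was -0.067 (interval -0.26 to 0.047), which held 0. Leaving out the centring adds 0.078 to every ratio, the typical region included. That interval therefore says nothing on the distance from the typical region. The only counting interval of this list that left out 0 lay above it. The kinase genes Map2k2 (16 and 28 tags, -0.66) and Map2k1 (25 and 40, -0.53), the receptor gene Fgfr1 (10 and 17, -0.62) and the phosphatase gene Dusp4 (16 and 27, -0.61) each had an interval that held 0. The collagen and Mapk themes were named by the study from expression in cells of the same knockdown, so that their choice is not independent of this experiment.

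Of 32 pluripotency genes, 11 had a shared promoter region, and none had an interval that left out 0 (median -0.12, interval -0.33 to 0.25). Nanog, Foxd3, Gtsf1 and Otx2 had no shared region. Klf2 had 41 tags in siH3.3 and 32 in siNT (0.50) and Tet2, a 5-methylcytosine oxidase gene, 45 and 42 (0.24). Sox2 (11 and 16, -0.40), Klf4 (23 and 32, -0.33) and Pou5f1 (175 and 210, -0.12) are also carried by the retroviruses. The reporter cassette sits behind the stop codon of Pou5f1 itself. The region at Pou5f1 had 416 tags in D0 already. In their genebodies, Sox2 had 36 tags in each library (0.14) and Klf4 56 and 51 (0.28). Tags from the endogenous genes and from added DNA cannot be told apart there. Of 21 epithelial genes, 10 had a shared promoter region (median -0.040), among them Cldn3, a tight junction gene (20 and 14 tags, 0.66) and Krt8 (18 and 25, -0.33). Cdh1, encoding E-cadherin, had a shared region only in its genebody, with 11 and 13 tags (-0.097).

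Housekeeping genes give the background of the same measure. All 16 had a shared promoter region, with a median of 0.082 (interval -0.28 to 0.31) and a range of -0.86 (Eef2, 12 and 24 tags) to 0.44 (Psmb2, 38 and 31 tags). None had an interval that left out 0. The promoter regions of 13 replication-dependent histone genes had a median of 0.094 and those of 17 TEAD and SRF targets 0.019, with no interval that left out 0 in either list. Hist1h3e, encoding canonical H3, had 30 and 24 tags (0.47), and Cnn1, encoding calponin, 20 and 13 (0.77, interval -0.31 to 1.90).

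Terf1, whose product binds telomere repeats, had the largest difference among the 15 genes named outright. Its region over the start of the gene (chr1:15795409-15796168) had 24 tags in siH3.3 and 57 in siNT, a log2 ratio of -1.10 (interval -1.86 to -0.39). Terf2, the gene of the second telomere repeat factor, had 20 and 22 tags (0.0069), and Adcy7, an adenylate cyclase gene, 19 and 25 (-0.25).

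At markers of other cell types, few promoter regions were shared. Shared promoter regions were found at 3 of 8 endothelial genes (Kdr, Tek and Esam), at 1 of 8 blood genes (Cd68, 14 tags in each library) and at 2 of 8 neural genes. Their summed pileup in CPM was 2.95 in siH3.3 and 2.66 in siNT for the endothelial list, and 2.30 and 1.84 for the neural list. With regions inside the genes counted as well, 5 endothelial, 2 blood and 4 neural genes had a shared region. The summed pileup of their strongest regions was 7.71 and 6.20 CPM for the endothelial list, and 4.23 and 3.67 for the neural list. The defining genes Pecam1, Ptprc, Spi1 and Sox10 had no shared region, and Cdh5 had one only within the gene. Of the neural genes, Pax6, a transcription factor of eye and neural tissue, had 31 tags against 17 (1.01, lower end of the interval 0.11), and Tubb3 12 against 23 (-0.79, interval -1.94 to 0.27). A peak marks accessible chromatin and not expression, so that these counts do not give the share of such cells.

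**Figure D4:**
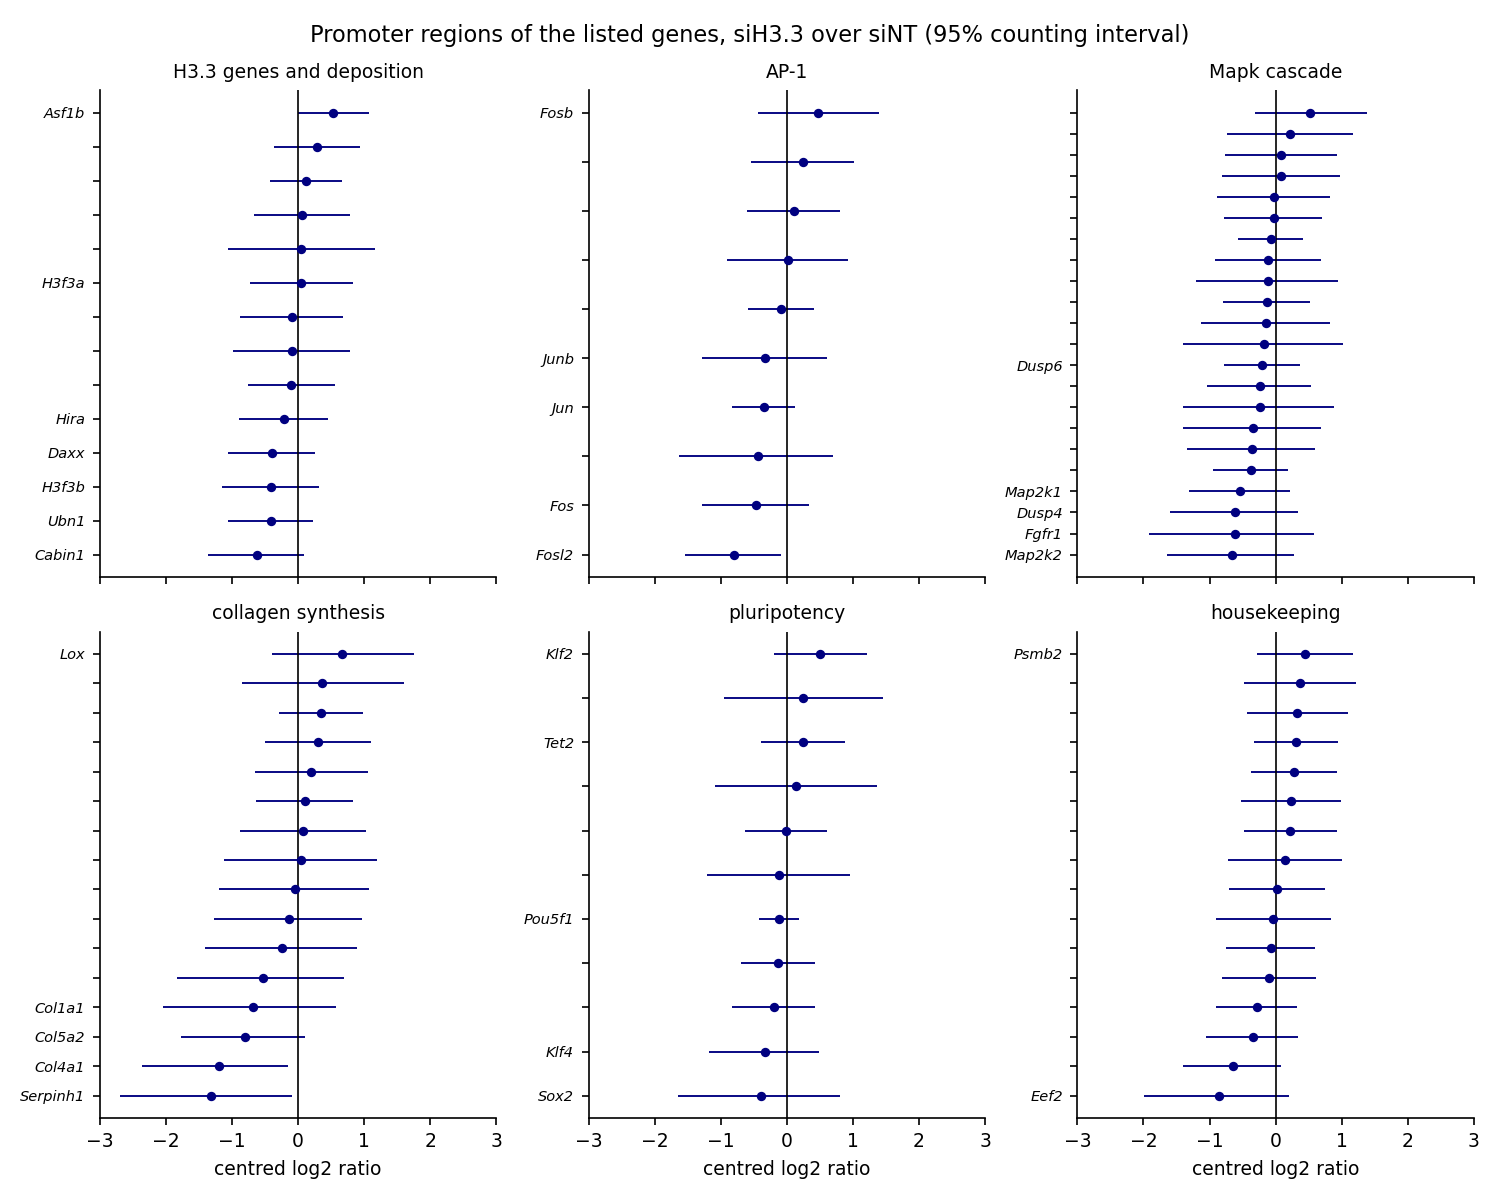
Centred log2 ratio of siH3.3 over siNT (horizontal axis) at the strongest shared promoter region of genes in 6 lists (names given for those in the text, 1 Mapk region not drawn), with the exact 95% counting interval of its 2 tag counts. Nearly every interval crosses 0, with Serpinh1 (-1.32), Col4a1 (-1.20) and Fosl2 (-0.80) below it and Asf1b (0.53) above.

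Among the 19 chromosomes, chromosome 11 had the lowest mean, -0.055 (SE over regions 0.0090, n = 2073), and chromosome 7 the highest, 0.019 (SE 0.0083, n = 2218). On chromosome 11 the counting interval lay above 0 at 12 regions and below 0 at 42, and on chromosome 7 at 29 and 15. Of all members, 0.891% lay above and 1.06% below. The means of the 7 stretches of 20 Mb of chromosome 11, in order, were -0.070, 0.025, -0.018, -0.042, -0.071, -0.085 and -0.23, the last from 59 regions. Its mean was -0.077 at promoters, -0.049 at genebodies and -0.018 at intergenic regions. After centring on GC, which is highest on chromosome 11 (median 55.2%), its mean was -0.049. The chromosome was singled out after all 19 had been seen.

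**Figure D5:**
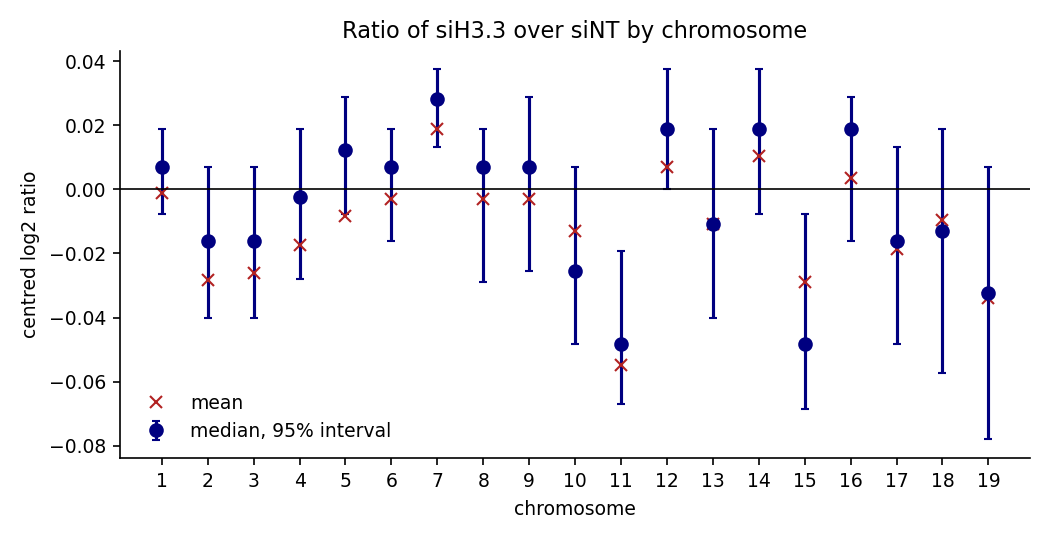
Median (circles, with 95% order-statistic intervals) and mean (crosses) of the centred log2 ratio of siH3.3 over siNT at the shared regions of each chromosome. All medians lie between -0.048 and 0.028, with chromosome 11 lowest by its mean (-0.055).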

How the data were processed

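ATAC-Seq peak files of 9 libraries (1 per condition) were used, and the comparison was between D6 siH3.3 (18669683 tags) and D6 siNT (21784047 tags). The authors mapped reads to mm9 (the labels name STAR), removed duplicates with Picard and called peaks with MACS 2.1.0.20151222, per the file headers without control or local background, with tags extended to 200 bp and a q-value cutoff of 0.05. The deposited pileup is a signal, the unscaled number of extended tags over a summit. The deposited fold enrichment is a ratio to an even background, and the deposited significance is −log10 of p and q-values. Totals in the headers may hold mitochondrial tags, since mitochondrial peaks were present.

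Summits were joined and overlapping peaks merged within a library. Gene models were those of GENCODE vM1 (mm9), and the midpoint of a region decided its position. A gene was represented by its shared region of highest mean pileup that overlapped the 3 kb upstream of a TSS. Named genes were up to 6 per list (largest promoter ratio), 15 genes given outright, the 8 largest differences each way and the 5 highest pileups. Further genes of the lists with high pileup or a known role were added after their values were seen. Members and lists were chosen with earlier results of these data known. Intervals cover counting or sampling of regions only, and PCR copies are not independent molecules. Some genes are not reported here. Functions were tested on simulated data. Intervals used scipy 1.17.1, run in Python 3.11.15, and sequences were read with pysam 0.24.0. The alternatives tried are given in the closing section.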

Additional observations from a re-analysis of the deposited data

Results flagged for a closer look

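Peaks on the mitochondrial genome, which no comparison used, reached a highest pileup of 19524 tags with the H3.3 knockdown and of 22681 tags with the non-targeting siRNA, a centred log2 ratio of -0.072. All 9 libraries had such peaks, from 13802 tags in D0 upward. They were singled out as signal in data outside the measurement.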

How the results depend on the processing

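No paired analysis was possible because each condition had 1 library. The limits are the single library per condition, the low pileups, the call floors and the floors in tags, which are not equal in CPM. The 12 planned and 3 added settings (means, at least 60 tags in sum, and centring on GC, all chosen after seeing the data) gave the following. The 236 higher and 270 lower regions past 2-fold became 29 and 43 with at least 15 tags in both, 26 and 35 with only the peaks above their library's median q-value significance, 37 and 42 with 5 tags added, 405 and 149 without centring, and 5 and 12 with at least 60 tags in sum. By fold enrichment 167 were lower. The promoter minus intergenic difference was -0.052 with at least 15 tags, 0 with a running median over level, -0.0080 with centring on GC, and turned to 0.011 with at least 60 tags in sum. The highest minus lowest pileup quintile, -0.011, was -0.14 with at least 15 tags, -0.053 with only the peaks above the median, -0.038 with 5 tags added, 0 with the running median, -0.0027 with mean pileups, and turned to 0.0058 with means, 0.057 with at least 60 tags and 0.0035 with centring on GC. The difference between regions called in D0 but not in iPSCs and the reverse was 0.00078 with the running median over level. The AP-1 difference was 0.020 with at least 60 tags. The median of the neural list, 0.11 from 2 regions, was 0.98 and 1.00 with at least 15 tags and only the peaks above the median, where 1 region was left. The blood list gave no value under these 2 settings. Apart from these settings, the strongest shared region from the promoter to the end of the gene was taken in place of the promoter region. The median then changed sign for the pluripotency (0.033), fibroblast and mesenchymal (-0.054), collagen (0.074), housekeeping (-0.0068) and neural lists (-0.0080). The other lists kept their sign. The causes were not tested. The 317 further values of 72 genes each moved by less than their counting interval. That interval was the one of the main setting throughout. Removing regions or changing the centring leaves the tag counts of a gene as they were. Small moves were therefore built in and are no sign of stability.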
